A study of Drosophila melanogaster with 2 samples.

Results

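The genes described here are the 230 protein-coding genes of Drosophila melanogaster that encode odorant receptors (Or, 59 genes), gustatory receptors (Gr, 60), ionotropic receptors (Ir, 60) and odorant-binding proteins (Obp, 51). They were taken by symbol from the 13945 protein-coding genes annotated on the 6 main chromosome arms. Another 7 genes with such symbols are annotated as pseudogenes and were left out. Sob is a zinc-finger transcription factor of the odd-skipped family, and its binding in whole embryos aged 0 to 24 h was measured by ChIP-seq (immunoprecipitation of chromatin, then sequencing). The embryos came from a sob-GFP strain, an insertion targeting sob, that makes a sob-eGFP fusion protein, and an antibody against GFP was used. There was 1 group with 2 biological replicates, both from the same strain, and no other group of embryos was analysed here. The sources used here do not give the promoter that drives the fusion or how many embryos were pooled.

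Odorant and gustatory receptors are membrane proteins that form ligand-gated ion channels in insect sensory neurons. Most olfactory neurons express 1 odorant receptor together with the shared co-receptor Orco, whereas ionotropic receptors descend from the ionotropic glutamate receptors and pair with co-receptors such as Ir8a and Ir25a. Odorant-binding proteins are small secreted proteins of the fluid around sensory dendrites, and some are made in other tissues. These genes are known for expression in few cells each, many of them in adult antennae, palps and taste bristles, and some in the larval sense organs that form in the late embryo.

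Promoter peaks were rare at these genes. A gene is called marked here when the summit of a peak lies within 1000 bp of any of its annotated transcription start sites (TSSs). In the main list of 7002 peaks, made by the authors from both replicates, 8 of the 230 genes were marked (3.48%, 95% Wilson interval 1.77 to 6.71). Among all 13945 protein-coding genes the share marked was 32.9%. By family, 1 of 59 Or genes (1.69%), 3 of 60 Gr genes (5.0%), 1 of 60 Ir genes (1.67%) and 3 of 51 Obp genes (5.88%) were marked. The intervals of the 4 families overlapped, with upper ends of 9.0% for Or, 13.7% for Gr, 8.86% for Ir and 15.9% for Obp. All 4 upper ends were below the share in all protein-coding genes. The intervals cover counting error only and treat genes as independent, although many of these genes lie in clusters and some share a TSS. No test was made, since the design holds no second condition and the genes are a chosen list.

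**Figure D1:**
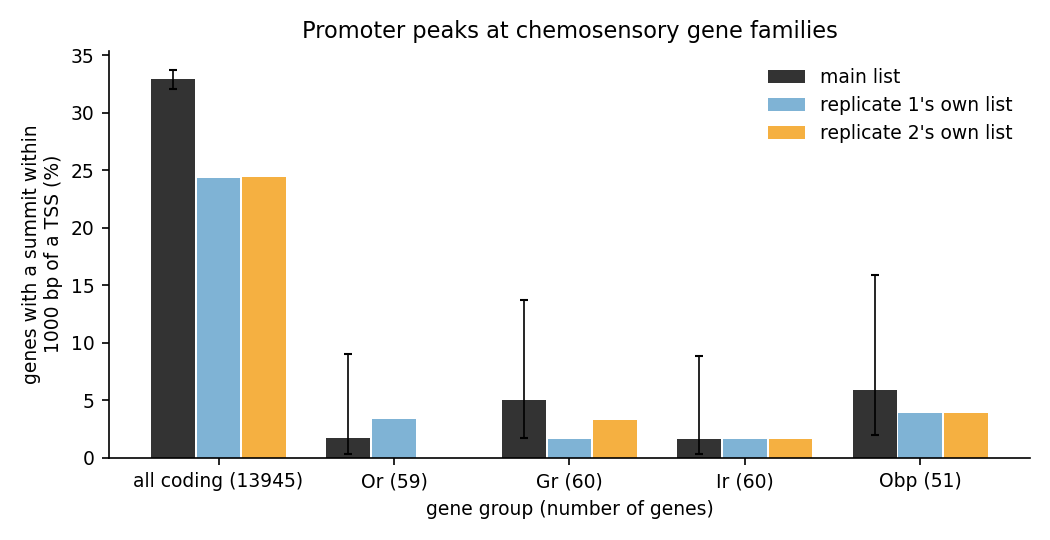
Share of genes (%) with a peak summit within 1000 bp of a TSS, for all protein-coding genes and for each chemosensory family, in the main list (dark bars, with 95% Wilson intervals) and in each replicate's own thresholded list. All 4 families are under 6% in the main list, against 32.9% of all protein-coding genes.

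The same scarcity was present in each replicate alone. In replicate 1's own list 6 members were marked (2.61%), against 24.3% of all protein-coding genes. In replicate 2's own list 5 members were marked (2.17%), against 24.4%. The members marked in both replicates' own lists were 3 in number (Ir60e, Obp93a and Obp99b), against 19.0% of all protein-coding genes.

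The nearest peak was also farther from members than from genes in general, counting marked and unmarked genes together. The median distance from a member's TSS to the nearest main-list summit was 11600 bp, with quartiles of 5110 and 24700 bp. Over all protein-coding genes the median was 3880 bp, with quartiles of 255 and 12600 bp. Much of this gap restates the promoter counts. Among unmarked genes alone the median was 12400 bp for members and 8330 bp for all protein-coding genes. By family it was 21800 bp for unmarked Or, 10200 bp for Gr and for Obp, and 9810 bp for Ir. Of the members, 130 (56.5%) had no summit within 10000 bp, against 30.1% of all protein-coding genes. With marked genes included, Or genes had the largest median, at 21300 bp, followed by Obp at 9900 bp, Ir at 9780 bp and Gr at 9020 bp. The farthest was Ir41a, with 204804 bp, followed by Ir20a with 104785 bp and Or42b with 100667 bp; these 3 were chosen after their values were seen. A summit lay inside the transcribed region of 1 member, Obp44a (0.435% of members, against 17.5% of all protein-coding genes). The members are also short genes, with a median length of 1498 bp against 2166 bp.

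**Figure D2:**
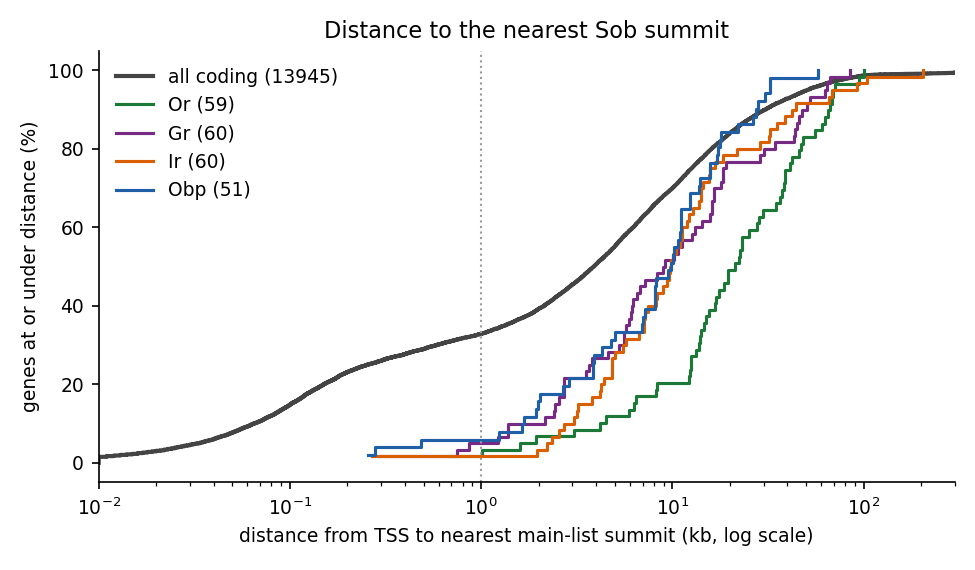
Cumulative share of genes (%) by the distance from their TSSs to the nearest main-list summit (kb, log scale, distances under 0.01 kb drawn at 0.01), for all protein-coding genes and for the 4 families. The dotted line stands at 1 kb. All 4 family curves lie below the grey curve up to 10 kb, and the Or curve is the farthest to the right between 10 and 30 kb.

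Of the 8 marked genes, 6 had a summit that was nearer to the TSS of a neighbour that is not a chemosensory gene. These were Or88a, Gr32a, Gr63a, Gr64a, Ir60e and Obp93a. The neighbour in all 6 cases is transcribed away from the chemosensory gene, so that both TSSs face the same stretch of DNA head to head. The summits lay 270 to 862 bp upstream of the chemosensory TSS. Only Obp44a and Obp99b had their own TSS nearest to a summit. Counting only such genes, 2 of 230 members were marked (0.87%), against 24.1% of all protein-coding genes. Of all marked protein-coding genes, 73.2% had their own TSS nearest to a summit, against 2 of the 8 marked members.

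**Figure D3:**
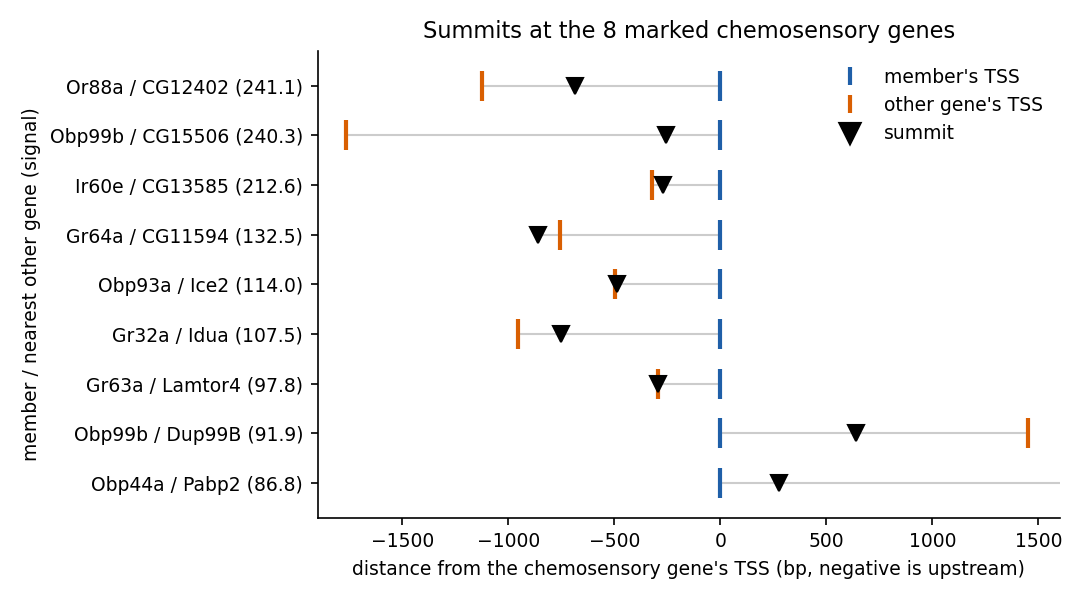
Position of each of the 9 main-list summits (triangles) at the 8 marked genes, in bp from the nearest TSS of the chemosensory gene (blue), with the TSS of the nearest other gene (orange) and the peak signal in brackets. In 6 rows the orange mark is closer to the triangle than the blue one. The other gene's TSS at Obp44a lies 3656 bp downstream, outside the plot.

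Obp99b (FBgn0039685) encodes an odorant-binding protein and was the member whose own promoter carried the stronger peak. The peak at chr3R:29716961-29717340 (dm6) had a signal of 240.3, place 1476 of the main list, with the summit in intergenic DNA 255 bp upstream of the TSS. Signal is the authors' value per peak from their peak caller, with no stated scale, and single peaks carry no error. In the replicates' own lists the signals were 163.4 in replicate 1 and 89.2 in replicate 2, so the peak was in both. A weaker peak at chr3R:29715999-29716378 reached 91.9, and its summit was 962 bp from the other and 65 bp past the 3′ end of the gene. It was in replicate 1's own list at 61.3, and no peak of replicate 2's ranked list overlapped it. The nearest other TSSs, those of CG15506 and Dup99B, were 1512 and 812 bp from these summits.

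The 101 bases at each of these summits are shown because the same 9 letters recur in them. Capitals mark that string, GGCGCCATC, which is read on both strands and was chosen after the sequence was seen. Both are from the plus strand of release 6 in RefSeq, which has the coordinates of dm6.
Obp99b upstream peak, chr3R:29717101-29717201: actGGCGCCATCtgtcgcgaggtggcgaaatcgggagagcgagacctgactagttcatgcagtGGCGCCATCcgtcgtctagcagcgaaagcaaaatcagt
Obp99b downstream peak, chr3R:29716139-29716239: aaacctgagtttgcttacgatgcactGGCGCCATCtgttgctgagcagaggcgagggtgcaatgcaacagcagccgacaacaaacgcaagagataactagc
The upstream peak held 2 copies and the downstream peak 1. Of all 7001 main-list peaks on the main arms, 62 (0.886%) held the string anywhere and 4 (0.0571%) held 2 or more copies. It was within 50 bp of 38 summits (0.543%).

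Or88a (FBgn0038203), a receptor of antennal neurons that respond to fly odours, was the single marked Or gene and had the highest signal of all members, at 241.1. Its peak at chr3R:14108568-14108947 stood at place 1470, with 144.5 in replicate 1 and 101.4 in replicate 2. In replicate 2 the peak was in the ranked list but not past the authors' threshold. The summit was 687 bp upstream of Or88a and 437 bp upstream of CG12402, and these TSSs lie 1124 bp apart.

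Gr32a, Gr63a and Gr64a were the marked taste receptor genes. Gr63a (FBgn0035468), which with Gr21a forms the receptor for CO2, had a peak at chr3L:3896706-3897085 with a signal of 97.8. The signals in replicates 1 and 2 were 52.6 and 61.5, the latter short of the threshold. The summit was 293 bp upstream of Gr63a but 4 bp upstream of Lamtor4, a subunit of the lysosomal Ragulator complex. Gr32a (FBgn0041246), a receptor for bitter compounds and male pheromone, had a peak at chr2L:11113072-11113451 with a signal of 107.5. It was 53.3 in replicate 1, short of the threshold, and 62.6 in replicate 2. This summit was 752 bp upstream of Gr32a and 201 bp upstream of Idua, which encodes the lysosomal enzyme iduronidase.

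Gr64a (FBgn0045479) is a sugar receptor at the start of the Gr64 cluster. Its peak at chr3L:4025717-4026096 had a signal of 132.5, with 41.8 in replicate 1, short of the threshold, and 89.9 in replicate 2. The summit lay in the 5′ UTR of CG11594, 104 bp downstream of that gene's TSS and 862 bp upstream of Gr64a. The other Gr64 genes were unmarked, with the nearest summit 2698 bp from Gr64b and Gr64c, 6155 bp from Gr64d, 6234 bp from Gr64e and 4630 bp from Gr64f. Their highest ranked-list signals were 29.1 to 59.8. Gr64b and Gr64c share a TSS in the annotation, as do Gr64d and Gr64e.

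Obp93a (FBgn0038859) had a peak at chr3R:21130013-21130392 with a signal of 114.0, and it was in both replicates' own lists, at 52.6 and 72.7. The summit was 486 bp upstream of Obp93a and 13 bp upstream of Ice2. At Gr63a and Obp93a the summits thus lay within 15 bp of the neighbour's start.

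The sequences of 4 of these shared stretches show where the summits fall, and none of the searched motifs lay within 50 bp of the summits. Most main-list summits lacked them too. The commonest strings, TATAAA and GAGAG, lay within 50 bp of 15.2% and 12.4% of the 7001 summits. Capitals mark the 9 bases centred on the summit. All are plus-strand sequence of release 6 from RefSeq, with no transcribed base of either gene beyond the start site itself.
Gr63a to Lamtor4, from TSS to TSS, chr3L:3896603-3896900: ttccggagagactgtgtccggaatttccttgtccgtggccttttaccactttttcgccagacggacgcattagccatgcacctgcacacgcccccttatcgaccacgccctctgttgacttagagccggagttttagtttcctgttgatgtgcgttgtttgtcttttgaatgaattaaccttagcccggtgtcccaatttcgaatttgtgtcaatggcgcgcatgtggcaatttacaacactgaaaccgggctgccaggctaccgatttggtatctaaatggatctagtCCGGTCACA
Obp93a and Ice2, ending before the Ice2 TSS, chr3R:21130115-21130215: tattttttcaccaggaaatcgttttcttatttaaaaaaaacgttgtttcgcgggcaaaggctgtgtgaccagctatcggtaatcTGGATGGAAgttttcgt
Or88a and CG12402, chr3R:14108708-14108808: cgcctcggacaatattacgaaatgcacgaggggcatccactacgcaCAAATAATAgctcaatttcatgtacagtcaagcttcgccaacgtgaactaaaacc
Gr32a and Idua, chr2L:11113212-11113312: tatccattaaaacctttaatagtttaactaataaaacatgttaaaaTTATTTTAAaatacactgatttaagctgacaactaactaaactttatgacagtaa
The Gr32a and Idua summit had the lowest share of G and C among the 9, at 20.8% of 101 bases. Those of Gr63a and Obp93a held 43.6% each and that of Or88a 45.5%, against 39.4% ± 11.1 (SD) over the 7001 summits of the main list.

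The remaining marked genes are on another arm and their sequence is not shown. Ir60e (FBgn0035019) was the single marked Ir gene, with a peak on 2R from 24531352 to 24531731. Its signal was 212.6, with 124.3 in replicate 1 and 84.2 in replicate 2, both past the threshold. The summit was 270 bp upstream of Ir60e and 52 bp upstream of CG13585. Ir60b and Ir60d, in the same stretch of 2R, had no summit within 10472 and 6734 bp.

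Obp44a (FBgn0033268) had the lowest signal of the marked members, at 86.8 (2R, 8134619 to 8134998). The summit lay in its coding exon, 278 bp downstream of the TSS. The peak was in neither replicate's own thresholded list. Replicate 2's ranked list had an overlapping peak at 49.9 and replicate 1's had none. Or43b (FBgn0026393) was marked in replicate 1's own list alone, at 52.6, with the summit in its coding exon 376 bp downstream of the TSS. There the signal in replicate 2 was 20.0, and the ranked list of both replicates gave 67.5, short of the threshold.

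**Figure D4:**
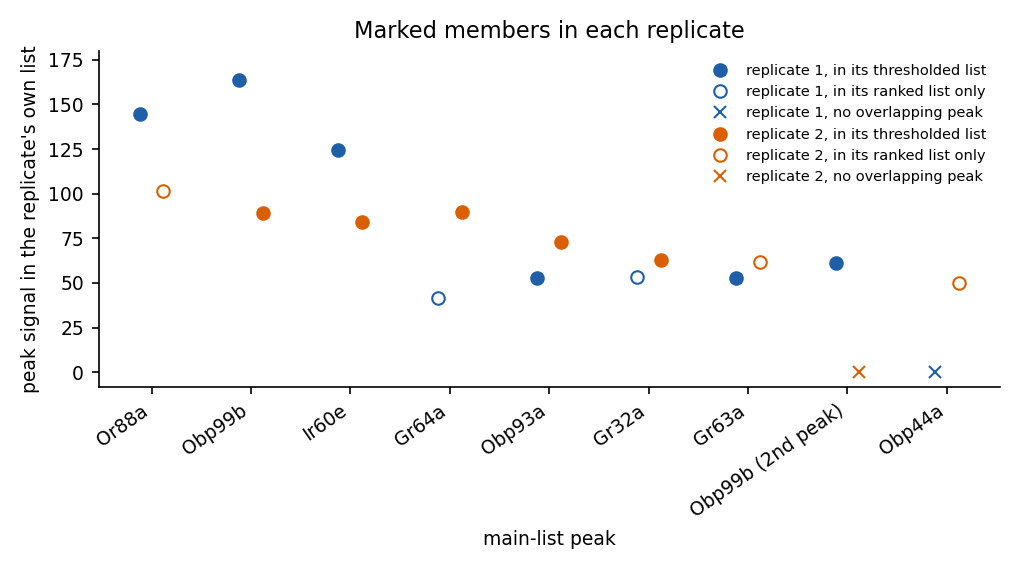
Signal of the peak overlapping each of the 9 main-list peaks in each replicate's own list (filled, past the authors' threshold; open, in the ranked list only; cross, no overlapping peak, drawn at 0). Values span 41.8 to 163.4, and 3 of the 9 peaks are past the threshold in both replicates.

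As a group, the 8 marked members carried signals below the middle of the range. Their median promoter signal was 123, against 168 over all 4589 marked protein-coding genes. Or88a and Obp99b stood at percentiles 68.3 and 68.1 of marked genes, Ir60e at 62.2 and Gr64a at 35.1. The other 4 stood between percentiles 6.08 (Obp44a) and 24.3 (Obp93a).

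The surroundings of the members differed from those of most genes, and the share of marked genes differed with the surroundings. A single TSS was annotated for 209 members (90.9%), against 73.5% of all protein-coding genes. The nearest other coding TSS belonged to a gene of these families for 90 members (39.1%) and for 236 of all 13945 protein-coding genes. The TSS of a coding gene outside these families lay within 1000 bp for 34 members (14.8%), against 42.5% of all protein-coding genes. Of the 34 members with such a neighbour 5 were marked (14.7%), and of the other 196 members 3 were marked (1.53%). Counting the TSS of any other coding gene, members included, 5 of 57 members with one within 1000 bp were marked (8.77%) and 3 of 173 without one (1.73%). By that same count the shares over all protein-coding genes were 48.3% and 21.3%. Among genes with 1 TSS and no other coding TSS within 1000 bp, 1 of 158 members (0.633%) and 15.1% of 6110 genes in all were marked.

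Head-to-head neighbours showed the same order. Such a neighbour outside the families lay within 1000 bp of 24 members, and 5 of these were marked (20.8%, Wilson interval 9.24 to 40.5). Of the 206 members without one that near, 3 were marked (1.46%). These 3 include Or88a, whose head-to-head neighbour CG12402 has its TSS 1124 bp away. Over all protein-coding genes the shares were 52.9% of 5052 genes with a head-to-head coding TSS within 1000 bp and 21.6% of the other 8893, where the neighbour could be any coding gene. The part of these surroundings in the low share of marked members was not tested.

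The marked genes were spread over 4 arms. There were 3 marked members on 3R (of 54), 2 on 2R (of 75), 2 on 3L (of 37), 1 on 2L (of 33) and 0 on X (of 31, which allows up to 11.0% by the Wilson interval). All 5 arms that hold members had 31.4% to 34.4% of all their protein-coding genes marked.

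Most unmarked members had a weak peak nearby in the authors' ranked list of both replicates. That list holds 117372 peaks, which cover 29.2% of the main arms, so a peak near a TSS is common. Of all members, 167 (72.6%) had a ranked peak within 1000 bp, against 85.1% of all protein-coding genes. Of the 222 unmarked members, 159 had one (71.6%) and 63 had none, against 77.9% of the unmarked protein-coding genes with one. The median of the highest ranked signal, with 0 where there was no peak, was 27.7 over the unmarked members and 40.3 over the 9356 unmarked protein-coding genes. By family the medians over unmarked members were 32.4 for Or, 30.6 for Gr, 29.1 for Obp and 19.9 for Ir.

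Members unmarked in all lists have, by that definition, only ranked signals short of the threshold. The 5 highest, 4 of them on 3L, were Ir62a at 76.6, Gr77a at 72.3, Ir76a at 70.7, Or67d at 69.6 and Obp47b at 66.6. Or67d is a receptor for the male pheromone cis-vaccenyl acetate, and its summit lay 779 bp upstream of its TSS. The signal there was 29.9 in replicate 1, and no peak of replicate 2's ranked list overlapped it. At Gr77a the summit lay 57 bp upstream of its TSS, in an intron of CG13252, and the signals were 33.6 in replicate 1 and 29.6 in replicate 2. The Obp47b summit was nearer to the TSS of CG7741 (517 bp) than to that of Obp47b (554 bp). The Ir76a summit, in a coding exon of SREBP, was nearer to the TSS of a non-coding RNA (521 bp) than to that of Ir76a (732 bp). The Ir62a summit was nearest to its own TSS but lay in a coding exon of Iml1. The 5 summits carried −log10 global irreproducible discovery rates of 0.36 to 0.91. The main list begins at 2.0, so lower values follow from these genes being unmarked.

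The replicates differed in how often their ranked lists reached these genes. In replicate 1, 160 members (69.6%) had a ranked peak within 1000 bp, and in replicate 2, 137 (59.6%) had one. Over all protein-coding genes replicate 2 had the larger share, with 79.7% in replicate 1 and 82.1% in replicate 2. For Or genes the shares were 69.5% in replicate 1 and 45.8% in replicate 2, and for Ir genes 71.7% and 45.0%. Gr genes stood at 68.3% and 70.0%, and Obp genes at 68.6% and 80.4%. Both replicates had a ranked peak at 101 members (43.9%), against 70.2% of all protein-coding genes. With 1 list per replicate these differences were not tested, and the lists differ in length, with 91315 and 97987 peaks.

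**Figure D5:**
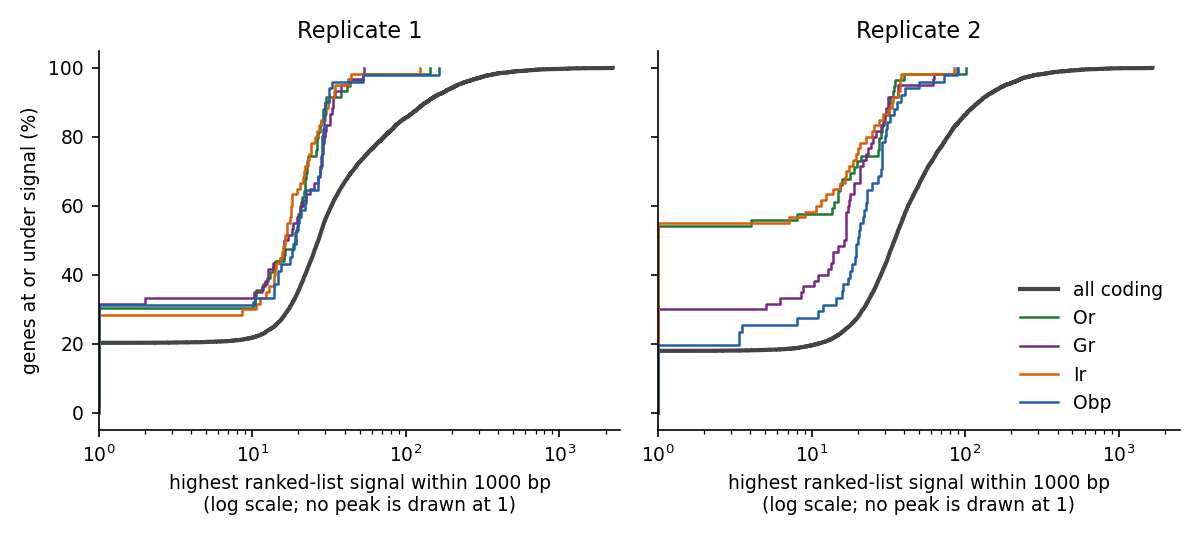
Cumulative share of genes (%) by the highest signal of a ranked peak within 1000 bp of a TSS (log scale, genes with no peak drawn at 1), for all protein-coding genes and the 4 families, in replicates 1 and 2. At signals over 10 the family curves stand above the grey curve in both panels, and in replicate 2 the Or and Ir curves start above 50%.

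The co-receptor genes, shared by many chemosensory neurons, were mostly unmarked, as were protein-coding genes in general (32.9% marked). The co-receptor genes Ir8a, Ir25a, Ir76b and Ir93a had highest ranked signals of 35.2, 48.6, 52.7 and 19.3. Beside the marked genes Gr32a, Gr63a and Gr64a, 5 other taste receptor genes were looked up and were unmarked. The ranked signal was 31.0 at the CO2 receptor gene Gr21a, 36.6 at the fructose receptor gene Gr43a and 29.4 at Gr5a, a receptor for trehalose. At the bitter receptor gene Gr66a it was 6.13, and Gr33a, also for bitter compounds, had no ranked peak within 1000 bp.

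Orco, the odorant co-receptor, was the only marked gene among the co-receptor genes looked up. It is not matched by the symbol rule and was marked by a peak with its own TSS nearest (FBgn0037324; chr3R:5413062-5413441, signal 96.8, summit 846 bp upstream). The signal was 57.6 in replicate 1, past the threshold, and 42.1 in replicate 2, short of it. In the list of 30 other chemosensory genes that holds Orco, 4 were marked (13.3%, Wilson interval 5.31 to 29.7), against 32.9% of all protein-coding genes. The others were CheA56a at 305.7, ppk29 at 254.4 and CheB93b at 171.9. CheA and CheB proteins and the channel subunit ppk29 have been tied to pheromone taste. The CheA56a summit was 10 bp from the TSS of CG30122, and that of ppk29 was 10 bp from eEF5, a translation factor gene. The CheB93b summit was nearest to its own TSS, at 568 bp upstream. Unmarked were lush, an odorant-binding protein gene (ranked signal 44.2), and Snmp1, whose product aids pheromone detection (11.0).

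A list of synaptic glutamate receptor genes had 0 of 14 marked (Wilson interval to 21.5%), against 32.9% of all protein-coding genes. Their median ranked signal was 38.1. The ionotropic receptors among them are relatives of the Ir family, whereas mGluR, also in the list, is a metabotropic receptor. Of 26 regulators of olfactory and gustatory neurons, 9 were marked (34.6%, interval 19.4 to 53.8), close to the 32.9% of all protein-coding genes. All 9 had their own TSS nearest to a summit, again 34.6% of the list, against 24.1% of all protein-coding genes. That share is within the same interval. Another coding TSS lay within 1000 bp of 7.69% of these regulators, against 42.9% of all protein-coding genes. A single TSS was annotated for 53.8% of them, against 73.5%. The part of these surroundings in the own-TSS share was not tested. The strongest of the 9 were Xbp1 at 506.6, the zinc-finger gene zf30C at 329.4, Alh at 247.7 and the limb and eye selector gene dac at 157.3. The others were svp at 119.2, the POU-domain gene pdm3 at 106.2, bab2 at 105.5, E(spl)m7-HLH at 97.3 and Lim1 at 85.8. The 4 strongest were marked in both replicates' own lists. Of the rest, svp was marked in replicate 2's list alone and pdm3 in replicate 1's alone. Neither list marked bab2, E(spl)m7-HLH or Lim1. The proneural genes ato and amos and the POU-domain gene acj6 were unmarked. For contrast, cytoplasmic ribosomal protein genes were chosen as a list with many promoter peaks. They were taken by symbol, with relatives such as RpL24-like included. Of these, 74 of 93 were marked (79.6%), with a median ranked signal of 231. The median distance from their TSSs to a summit was 63 bp.

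The promoters of the chemosensory genes seldom held the DRE, an element that was more common at marked promoters than at all promoters. In windows from 250 bp upstream to 50 bp downstream of the most upstream TSS, its letters TATCGATA, read on both strands, was in 1 of 230 member promoters (0.435%). It was in 9.37% of all 13945 promoters and in 14.5% of those of marked genes. In the shorter windows of 50 bp on either side of the 7001 main-list summits it was in 2.51%. The member with it was Gr68a, which was unmarked. The letters TATAAA were in 133 member promoters (57.8%), against 45.9% of all. By family this share was 78.0% for Or, 70.6% for Obp, 55.0% for Ir and 30.0% for Gr.

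The odd-skipped family motif was no more frequent in member promoters than in all promoters. Its letters ACAGTAGC were in 1 member promoter (0.435%), that of Obp57c, and in 0.531% of all. The core CAGTAGC, which overlaps that motif, was in 2 (0.87%), those of Obp57c and Obp69a, and in 2.28% of all. Neither string lay within 50 bp of the 9 summits, but both were rare at summits in general. Over the 7001 main-list summits the shares were 0.129% for ACAGTAGC and 0.743% for CAGTAGC. The GAGA string GAGAG was in 20.9% of member promoters and 29.8% of all. It lay within 50 bp of 1 of the 9 summits, the upstream one at Obp99b, and of 12.4% of the 7001 main-list summits. The Zelda string CAGGTAG was in 3 member promoters (1.3%) and in 1.64% of all. G and C made up 39.7% ± 5.97 (SD, 230 windows) of member promoters and 39.1% ± 7.73 of all promoters. A match or its absence in these windows describes the letters there and says nothing of any factor.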

How the data were processed

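Sob binding was measured by ChIP-seq in 2 replicates. Per the labels and the deposited file lists, the peak lists are on dm6 and were made by the authors from alignments and a control, then compared by irreproducible discovery rate (IDR). The aligner and peak caller were not given in the sources used here. The deposited signal per peak is the caller's own. The deposited score is the IDR scaled to end at 1000, with a lowest value of 830 in the main list. Both −log10 columns (q-value and global IDR) are as deposited. Summit offsets, another deposited column, gave summit positions. No read counts were used, so depth is unknown.

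Genes and TSSs came from Ensembl release 115 (annotation 6.54, no transposable elements), sequence from RefSeq's release 6; no main-list peak ran past the end of its arm. Summits were assigned to TSSs in Python 3.11.15 with pandas 2.3.3, and the assignment was tested on simulated data. Positions count from 1. Of 15 planned glutamate receptor symbols, 1 (Grid) was not matched. The members, lists and motifs were chosen with earlier results of these data known. Named genes are all marked members, those marked only in another list, the 5 highest unmarked ones by ranked signal, fixed receptor and co-receptor genes, and marked genes of the other lists (for the ribosomal genes, counts alone); other genes, such as cluster neighbours of marked members, were named after their values were seen. Clustered genes, such as the Gr64 genes, share neighbourhoods. Alternatives were another peak list, each replicate alone, other promoter widths and only the most upstream TSS.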

Additional observations from a re-analysis of the deposited data

How the results depend on the processing

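Under the alternatives tried (another peak list, each replicate alone, other promoter widths, the most upstream TSS) the share of members marked stayed below that of all protein-coding genes. The conservative list marked 7 members, 1 with its own TSS nearest, and 26.2% of all protein-coding genes. The stronger 50% of the main list marked 3 members (1.3%; Ir60e, Obp99b and Or88a), 1 with its own TSS nearest, and 21.2% of all. When either replicate's peaks were used alone, 5 to 6 members were marked, 1 to 2 with their own TSS nearest, against 24.3% to 24.4% of all. Without replicate 1, the marked members were Gr32a, Gr64a, Ir60e, Obp93a and Obp99b. Promoters of 500 bp gave 5 members and 29.0% of all, and promoters of 2000 bp gave 20 members (8.7%), 4 with their own TSS nearest (Gr89a, Obp44a, Obp99b and Obp99c), and 39.2% of all. Using only the most upstream TSS kept the same 8 members, with 30.8% of all protein-coding genes marked. Members with a ranked peak numbered 131 to 184 under their alternatives, against 167. The own-TSS count rests on Obp99b, which had its own TSS nearest in every list and width tried, and on Obp44a, which the conservative list and both replicates' own lists lacked. Read depth is unknown, so weak binding at unmarked members may lie below what these lists can show.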
